A study of Homo sapiens with 36 samples.

Results

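The question addressed here is how the transcriptome of HepG2 cells changed between 6 h and 24 h of incubation when no docosahexaenoic acid (DHA) was given. HepG2 is an established human hepatoma line that keeps many functions of the hepatocyte. Of the 36 RNA-seq samples of the series, the 18 without DHA were taken by their treatment labels, 9 collected at 6 h and 9 at 24 h. Each time held 3 samples of vehicle control (Control, labelled DMSO/BSA), 3 of propionate (PRO, 70 µM), a short-chain fatty acid, and 3 of protocatechuic acid (PCA, 20 µM), a phenolic acid. In all of these groups the cells were seeded, left for 24 h, and then kept in serum-free DMEM, the controls with the solvents and BSA alone. Longer treatment, longer time since seeding and longer time without serum therefore go together and cannot be told apart. The 3 replicates of a group came from 3 independent cultures, and each is RNA pooled from 3 replicates within that culture of 1 cell line.

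The values are counts of reads per gene. Total counts per library ran from 5890657 to 10788964 at 6 h (median 8662580) and from 5973164 to 8657882 at 24 h (median 6944225). The time difference was taken as the mean of the 3 differences 24 h minus 6 h within a treatment, with the replicate number as a factor, by the quasi-likelihood test of edgeR; adjusted p is after Benjamini-Hochberg, across all 11910 tested genes. A gene is called here when its adjusted p is at most 0.05 and its average log2 CPM is above 0, where CPM is the count per 1e6 counts of the TMM-scaled library total. Log2 fold changes are 24 h minus 6 h and carry their standard error (SE) over 9 libraries a time. These 9 come from 3 cultures, and beyond the replicate factor the SE and adjusted p count them as separate. Both can therefore be too small.

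The cells expressed the defining genes of their type at both times. Summed over 10 hepatocyte markers, the level was 55450 to 62220 CPM at 6 h and 62620 to 70510 CPM at 24 h. Single markers moved both ways: 6 of the 10 were called higher and 3 lower, beside 27.1% and 28.5% of all genes. Their log2 fold changes ran from -0.75 to 1.64. Of 10 endothelial markers 8 stayed under 1 CPM in every library, and of 10 leukocyte markers 6 did. The leukocyte sum was 871 to 1227 CPM at 6 h and 1793 to 2573 CPM at 24 h, of which LYZ, the lysozyme gene, made 811 to 1191 CPM at 6 h (median 907) and 1736 to 2515 CPM at 24 h (median 2245), a rise of 1.25 ± 0.064 on the log2 scale. Fibroblast markers summed to 8.71 to 15.3 CPM at 6 h and 14.3 to 27.8 CPM at 24 h. Their part in the results was not tested.

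The relation of expression to gene GC content differed between the times. The slope of log2 CPM on GC content was below 0 in 8 of the 9 libraries at 6 h and above 0 in 8 of the 9 at 24 h. The exceptions were PRO 6 h replicate 3, at 0.087 per 10 points of GC, and PRO 24 h replicate 1, at -0.18, where the other 24 h libraries lay between 0.016 and 0.19. Across the genes with a GC value the log2 fold change rose with GC content (Pearson's r = 0.333, across genes, which are not independent). With the genes cut into 4 equal groups by GC content, the median log2 fold change was -0.15 in the lowest group and 0.18 in the highest. Each comparison was therefore also fitted with an offset for GC content, and the counts it gave stand beside each list. In each of the 6 pairs of libraries of replicates 1 and 2 whose column names hold an index sequence, the 6 h and the 24 h library carry the same one, so these pairs cannot have shared a pool, and in them time and sequencing pool cannot be told apart. The column names of replicate 3 hold no index, so whether its 6 h and 24 h libraries shared a pool is not known. Replicate 3 alone called 2699 genes, of which 2636 were also called in the same direction over the 3 replicates, which include it. Its 3 libraries a time are the 3 treatments of 1 replicate number, so these calls do not describe replicated cultures.

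**Figure D1:**
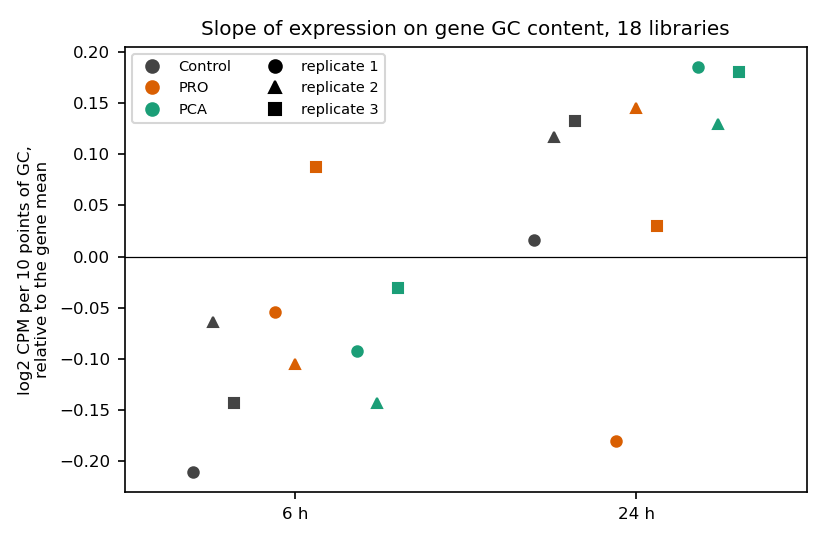
Slope of log2 CPM, taken relative to each gene's mean over the 18 libraries, on the GC content of the gene (vertical axis, per 10 percentage points of GC) for each library at 6 h and 24 h. Colours give the treatment and shapes the replicate number; PRO 24 h replicate 1 lies at -0.18, below the other 24 h libraries, and PRO 6 h replicate 3 at 0.087, above the other 6 h libraries.

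Several regulators known from hepatocytes and hepatoma cells read out culture conditions. Sterol regulatory element binding proteins (SREBPs) turn on cholesterol and fatty acid synthesis when sterol is scarce. Hypoxia inducible factors (HIFs) turn on glucose uptake and glycolysis when oxygen is scarce, NRF2 turns on antioxidant enzymes on electrophile stress, and MTF1 turns on metallothioneins when zinc is high. Genes of mitosis are held under the DREAM complex through a promoter element named the cell cycle homology region.

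Promoters of members that moved together are shown, because these groups are known by promoter elements whose letters can be searched. They are the 250 bases before the start site from RefSeq (GRCh38.p14), written 5′ to 3′ on the gene's strand. Capitals mark the letters searched, on both strands, within these 250 bases. In the promoters of CENPA (chr2:26785806-26786055, plus strand) and CENPE (chr4:103198344-103198593, minus strand), genes of the centromere that fell at 24 h, the capitals mark TTTGAA or TTTAAA of the cell cycle homology region.
CENPA: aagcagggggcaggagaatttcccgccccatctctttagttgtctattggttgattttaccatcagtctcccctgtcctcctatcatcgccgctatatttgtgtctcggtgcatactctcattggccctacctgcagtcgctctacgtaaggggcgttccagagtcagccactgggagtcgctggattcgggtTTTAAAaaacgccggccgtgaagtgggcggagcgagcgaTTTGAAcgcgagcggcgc
CENPE: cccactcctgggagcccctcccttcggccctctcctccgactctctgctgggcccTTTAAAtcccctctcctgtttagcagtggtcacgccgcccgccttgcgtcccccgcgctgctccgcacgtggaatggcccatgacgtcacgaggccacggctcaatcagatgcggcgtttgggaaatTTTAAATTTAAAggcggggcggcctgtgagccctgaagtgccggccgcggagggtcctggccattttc
In MT1X (chr16:56682220-56682469, plus strand) and MT2A (chr16:56608334-56608583, plus strand), metallothioneins that fell, they mark TGCACNC or TGCGCNC, the core of the metal response element.
MT1X: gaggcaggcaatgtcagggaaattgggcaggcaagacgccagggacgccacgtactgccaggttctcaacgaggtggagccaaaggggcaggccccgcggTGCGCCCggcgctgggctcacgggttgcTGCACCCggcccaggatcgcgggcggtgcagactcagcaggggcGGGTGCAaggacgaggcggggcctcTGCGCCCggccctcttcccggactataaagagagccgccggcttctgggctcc
MT2A: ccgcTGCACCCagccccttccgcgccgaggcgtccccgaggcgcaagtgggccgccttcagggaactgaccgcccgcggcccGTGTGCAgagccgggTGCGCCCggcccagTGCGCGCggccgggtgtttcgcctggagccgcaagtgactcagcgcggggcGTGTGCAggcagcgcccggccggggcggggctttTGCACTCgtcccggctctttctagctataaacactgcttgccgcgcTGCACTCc
In CA9 (chr9:35673678-35673927, plus strand), a carbonic anhydrase that rose, they mark ACGTG, the core of the hypoxia response element, which is also part of the E-box CACGTG.
CA9: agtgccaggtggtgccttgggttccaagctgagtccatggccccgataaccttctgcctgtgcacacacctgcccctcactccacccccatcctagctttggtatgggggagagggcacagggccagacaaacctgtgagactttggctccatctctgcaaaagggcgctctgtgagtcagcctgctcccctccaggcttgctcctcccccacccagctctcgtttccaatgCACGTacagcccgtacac
In GCLM (chr1:93909431-93909680, minus strand), a subunit of the enzyme that starts glutathione synthesis and that fell, they mark TGACNNNGC or TGAGNNNGC, the core of the antioxidant response element, which can overlap an AP-1 site.
GCLM: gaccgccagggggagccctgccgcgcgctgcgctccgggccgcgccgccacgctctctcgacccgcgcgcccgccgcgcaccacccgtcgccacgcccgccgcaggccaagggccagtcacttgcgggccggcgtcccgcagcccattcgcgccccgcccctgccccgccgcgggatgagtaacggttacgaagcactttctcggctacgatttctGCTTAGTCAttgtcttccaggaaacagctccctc
These 6 sequences hold 2, 3, 4, 7, 1 and 1 matches in the order shown, and in CENPE 2 of the 3 lie end to end. A match on the other strand reads as the reverse complement, such as GGGTGCA in MT1X and CACGT in CA9.

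Over the 300 bases from 250 before to 50 after the start, the cell cycle homology letters were found in 38 of the 43 mitosis genes with a promoter (88.4%) and in 6625 of all 27305 promoters (24.3%). The hypoxia core was in 15 of 32 hypoxia and glycolysis genes (46.9%; all promoters 21.6%), the antioxidant core in 8 of 19 NRF2 genes (42.1%; all 29.4%) and the metal core in 3 of 6 metallothionein and zinc transport genes (50%; all 29.3%). TCACNCCAC of the sterol regulatory element was in 1 of 17 cholesterol genes (5.88%; all 1.15%). These are matches of letters in a window and were not tested as binding sites.

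In all, 6624 of the 11910 genes were called (55.6%), 3228 higher at 24 h (27.1%) and 3396 lower (28.5%). With so large a background, the counts of each list below are to be read beside these shares. Its median log2 fold change is to be read beside that of all genes tested, -0.01. A test against a 1.5-fold change kept 653 genes (5.48%), 560 higher (4.7%) and 93 lower (0.781%), so larger changes were mostly rises. Past 2-fold were 152 higher (1.28%) and 19 lower (0.16%). With the GC offset 6954 genes were called (58.4%), 2743 higher (23%) and 4211 lower (35.4%). Past 1.5-fold it kept 534 (4.48%), 410 higher (3.44%) and 124 lower (1.04%), and each of the 560 and the 93 was still called in its direction without the fold limit. The 9 libraries of a time come from 3 cultures. With the 3 treatments of a replicate number summed, 3 sums against 3, there were 5122 called genes, 2540 higher and 2582 lower, and 513 past 1.5-fold. In 809 genes (6.79%) every 24 h library lay above every 6 h library, and in 555 (4.66%) every one lay below.

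The 12 largest rises among genes of average log2 CPM above 2 that rose in all 9 within-treatment pairs included PNCK, MIXL1, MUC5B, NYNRIN, COL2A1, TUBB1, TNNI2, SPAG4, SLC13A3, ANKRD1 and ASPDH. None of the 12 overlapped between times. They were chosen for large changes of the same sign in all 9 pairs of these libraries, so this largely describes the choice. MIXL1, a homeobox gene of early mesendoderm (hg19 chr1:226411319-226414756, plus strand), held 7.99 to 14.5 CPM at 6 h (median 10.7) and 92.8 to 158 CPM at 24 h (median 126). Its Control libraries read 7.99, 10.5 and 10.9 CPM at 6 h and 113, 146 and 135 CPM at 24 h in replicates 1, 2 and 3. The change was 11.8-fold, with a log2 fold change of 3.56 ± 0.069 (adjusted p = 4.31e-21), and it was 3.76 in Control, 3.30 with PRO and 3.63 with PCA. PNCK, a calcium/calmodulin dependent kinase, had the largest log2 fold change of the 12, 3.89 ± 0.27, from a low level of 0.115 to 1.82 CPM at 6 h (median 0.467) and 4.93 to 13.4 CPM at 24 h (median 8.66). MUC5B, a gel-forming mucin, gave 2.25 to 17.1 CPM at 6 h (median 12.5) and 39 to 108 CPM at 24 h (median 82.5), with the lowest 6 h library far below the 6 h median (log2 2.92 ± 0.14, adjusted p = 7.74e-14). COL2A1, a fibrillar collagen, rose by 2.57 ± 0.16 on the log2 scale. TUBB1, a beta tubulin of platelets, read 16.2 to 28.1 CPM at 6 h (median 20.7) and 90.8 to 139.9 CPM at 24 h (median 112), a rise of 2.45 ± 0.085, and SLC13A3, a sodium dicarboxylate cotransporter, rose by 2.29 ± 0.081.

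The 12 largest falls chosen in the same way were CYP1A1, SLC6A12, AKR1C2, SERPINA3, MT1E, MT1G, AKR1C1, MT1X, AKR1C4, UGT2B4, AKR1B15 and MT1F. They did not overlap between times either, which again largely describes the choice. CYP1A1, the aryl hydrocarbon receptor target that oxidizes polycyclic aromatic compounds (hg19 chr15:75011883-75017877, minus strand), read 24 to 63.8 CPM at 6 h (median 50.6) and 1.61 to 4.64 CPM at 24 h (median 2.51), a 16.2-fold fall with a log2 fold change of -4.02 ± 0.17 (adjusted p = 9.28e-15). At 6 h its replicates 1, 2 and 3 stood at 24, 50.6 and 62 CPM in Control, at 25, 52.2 and 63.8 CPM with PRO and at 24.8, 53 and 48 CPM with PCA, so replicate 1 was the lowest under each treatment. SLC6A12, the betaine/GABA transporter that is induced by hypertonicity, read 14 to 23.5 CPM at 6 h (median 16.4) and 0.604 to 5.32 CPM at 24 h (median 2.89) (log2 fold change -2.67 ± 0.16). SERPINA3, an acute-phase antiprotease, read 319 to 358 CPM at 6 h (median 327) and 64.5 to 80.5 CPM at 24 h (median 72.7), a 4.63-fold fall with a narrow spread (log2 -2.21 ± 0.045, adjusted p = 4.94e-21). UGT2B4, a glucuronosyltransferase of bile acids, fell at a low level (log2 -1.66 ± 0.19). The AKR1C genes lie next to each other on chromosome 10 and the MT1 genes on chromosome 16, and their near-identical copies could share reads, so values of single members are uncertain.

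**Figure D2:**
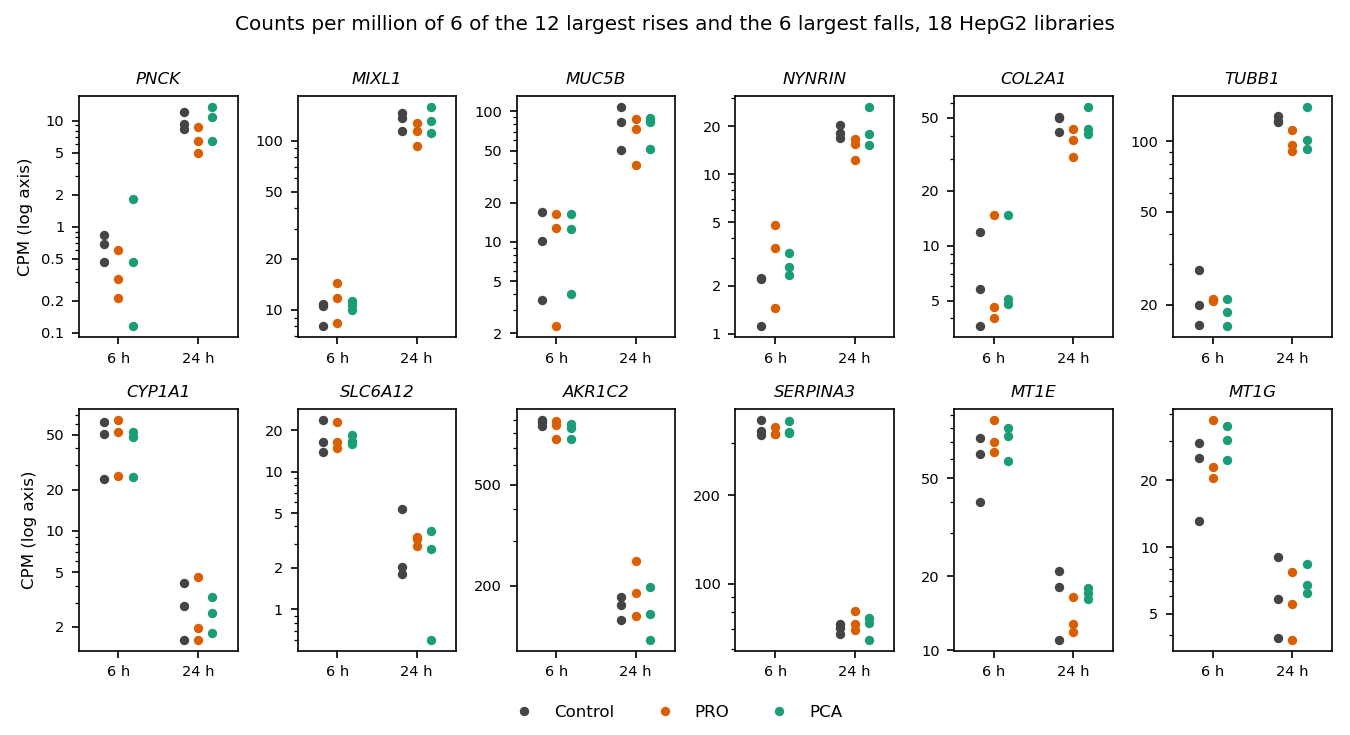
CPM on a log axis in each of the 18 libraries for 6 of the 12 largest rises (upper row) and the 6 largest falls (lower row), with 6 h and 24 h along the horizontal axis and the treatment by colour. In none of the 12 panels do the 9 points of one time overlap those of the other, and the genes were chosen for large changes in these libraries.

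Genes of cholesterol synthesis and uptake rose together. All 24 tested members of this list of 25 were called higher and none lower, against 27.1% and 28.5% of all genes, and the median log2 fold change was 0.75 (23 higher and 0 lower with the GC offset). Each of the 24 rose in all 9 within-treatment pairs, as did 13.2% of all genes tested. In 20 every 24 h library lay above every 6 h library, as in 6.79% of all genes. MVD, which makes isopentenyl diphosphate, read 77.3 to 118 CPM at 6 h (median 101) and 186 to 385 CPM at 24 h (median 350.4), the largest change of the list (log2 1.75 ± 0.094). HMGCS1, the cytosolic HMG-CoA synthase, read 327 to 382 CPM at 6 h (median 357) and 802 to 1153 CPM at 24 h (median 843), a rise of 1.31 ± 0.056 on the log2 scale with no overlap. Past the branch to sterols, FDFT1 (squalene synthase) changed by 1.07 ± 0.048, LSS (lanosterol synthase) by 1.14 ± 0.066, DHCR7 by 1.30 ± 0.079 and TM7SF2, a sterol reductase, by 1.40 ± 0.081. EBP, the sterol isomerase, had the smallest rise (0.27 ± 0.047), and its libraries overlapped. SREBF2, the gene of the sterol-sensing factor itself, rose by 0.50 ± 0.049 (adjusted p = 9.7e-09). The list median was 0.75 in Control, 0.76 with PRO and 0.79 with PCA.

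Fatty acid synthesis genes rose in 16 of 20 tested members and fell in 2 (14 and 3 with the GC offset), with a median of 0.48. ACSS2, which makes acetyl-CoA from acetate, rose by 1.23 ± 0.072, FADS2, the delta-6 desaturase, by 1.17 ± 0.076 and ELOVL6, an elongase of palmitate, by 0.92 ± 0.059. SCD, the delta-9 desaturase, went from 2143 to 4042 CPM in median without overlap, and FASN, the fatty acid synthase, from 1069 to 1882 CPM. SREBF1 rose by 0.64 ± 0.067, and this was 0.34 with the GC offset. ACACA, the acetyl-CoA carboxylase, rose by 0.34 ± 0.045. The 2 that fell were ACSL1 (-0.26 ± 0.051) and ELOVL2 (-0.24 ± 0.052), which lengthens polyunsaturated fatty acids.

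Hypoxia inducible and glycolysis genes formed the other group that rose almost throughout: 33 of 36 tested members were called higher and 0 lower, with a median of 0.58. The GC offset left 28 higher and 1 lower. For glucose uptake, SLC2A1, the transporter GLUT1, read 295 to 389.9 CPM at 6 h (median 352) and 861 to 1267 CPM at 24 h (median 1165), a 3.17-fold rise (log2 1.67 ± 0.064, adjusted p = 1.4e-15), and SLC2A3, the transporter GLUT3, rose by 1.49 ± 0.054. HK2, a hexokinase, went from 129 to 320.1 CPM in median (log2 1.24 ± 0.053). PFKFB4 and PFKFB3, which make the activator of phosphofructokinase, rose by 2.01 ± 0.084 and 1.40 ± 0.14. PFKFB4 held 19.9 to 26.2 CPM at 6 h (median 23.8) and 72.5 to 126 CPM at 24 h (median 95.5), so that no library overlapped. ALDOC, an aldolase, rose by 1.41 ± 0.085, and among abundant enzymes of glycolysis LDHA rose by 0.44 ± 0.048, PGK1 by 0.35 ± 0.049 and GAPDH by 0.20 ± 0.039 on the log2 scale, of which GAPDH was not called with the GC offset (0.001). PDK1, a kinase that inhibits pyruvate dehydrogenase, rose by 1.59 ± 0.078. Among known HIF targets outside glycolysis, CA9 rose by 1.60 ± 0.14, NDRG1 by 1.58 ± 0.13, EPO, the erythropoietin gene, by 1.43 ± 0.11 and VEGFA by 0.88 ± 0.048. EPO stood at 4.65 to 7.12 CPM at 6 h (median 6.20) and 12.6 to 22.9 CPM at 24 h (median 15.8). The 3 members that were not called were EGLN1, GPI and PFKP.

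**Figure D3:**
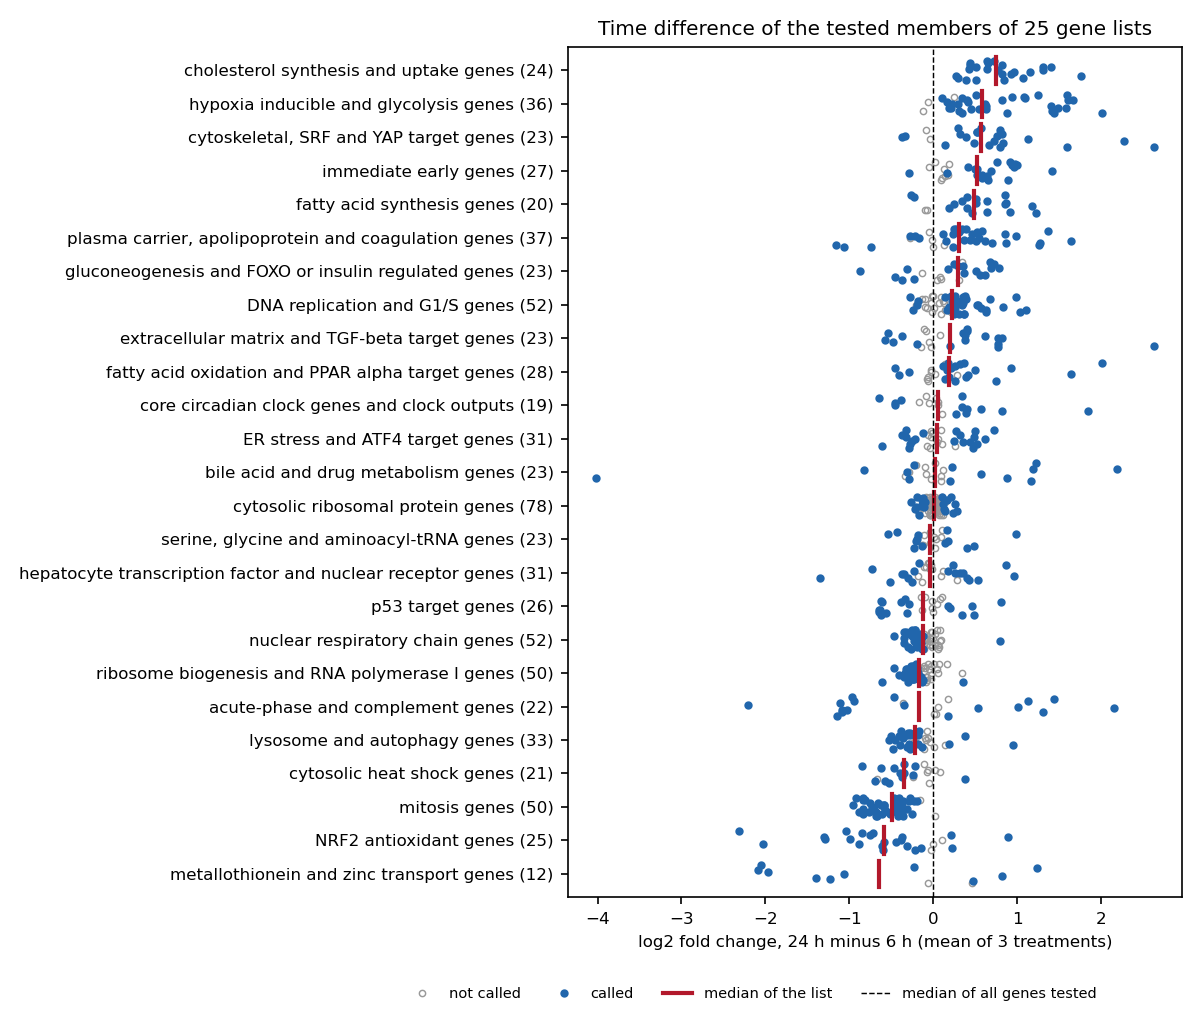
Log2 fold change, 24 h minus 6 h, of every tested member of 25 gene lists (1 point a gene, the number tested in brackets), with called genes filled, the list median as a red bar and the median of all genes tested as a dashed line. Cholesterol genes have the highest median, 0.75, and metallothionein and zinc transport genes the lowest, -0.65.

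Cytoskeletal genes and targets of SRF and YAP, factors that respond to actin and cell shape, were called higher in 19 of 23 tested members and lower in 2 (16 and 4 with the GC offset), with a median of 0.57. ANKRD1 of the largest rises belongs to this list. CTGF, the connective tissue growth factor, read 124 to 174 CPM at 6 h (median 158) and 371 to 552 CPM at 24 h (median 450.3) (log2 1.59 ± 0.054, adjusted p = 1.75e-16), and CYR61 rose by 0.82 ± 0.11. The actin genes ACTB and ACTG1 went from 2232 to 3745 CPM and from 1489.9 to 2954 CPM in median, without overlap (log2 0.80 ± 0.04 and 1.12 ± 0.057). The 2 members that fell were TEAD1, the partner of YAP on DNA (-0.37 ± 0.055), and AJUBA (-0.34 ± 0.04).

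Immediate early genes, which respond to serum and stress within minutes, were called higher in 18 of 27 tested members and lower in 1, with a median of 0.52. The GC offset gave 16 and 2, with a median of 0.33. EGR1 rose from 6.07 to 14.9 CPM in median (log2 1.42 ± 0.12) and JUND from 74.6 to 150.5 CPM (log2 0.97 ± 0.089). IER3 rose by 0.99 ± 0.11 but its libraries overlapped. FOS lay near 1 CPM (0.643 to 2.68 CPM at 6 h (median 1.38) and 1.38 to 4.16 CPM at 24 h (median 2.02)), and its call (log2 0.65 ± 0.24, adjusted p = 0.026) was lost in 12 of 31 alternatives, among them the GC offset and each of replicates 1 and 3 left out (adjusted p = 0.112 and 0.154), and, one at a time, Control replicate 1 of either time, PRO replicate 3 of either time and PCA replicate 2 of either time (adjusted p up to 0.0891). The list median was 0.60 in Control and 0.66 with PCA but 0.31 with PRO. In the pair PRO replicate 1, whose 24 h library has the GC slope given above, 14 members were above 0 and 13 below.

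Circadian clock genes were mixed, 8 called higher and 4 lower of 19 tested (6 and 6 with the GC offset). The shares of all genes were 27.1% and 28.5%. BHLHE40, a repressor of the clock that HIF also induces, read 18.5 to 25.5 CPM at 6 h (median 21.8) and 29 to 115 CPM at 24 h (median 88.7) (log2 1.84 ± 0.16), PER3 rose by 0.81 ± 0.11, and CRY1 fell (log2 -0.65 ± 0.1).

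Of 50 mitosis genes, 48 were called lower and 0 higher, with a median log2 fold change of -0.50; the GC offset left 48 lower. The falls were moderate, and 12 passed the 1.5-fold test. CENPA, the centromeric histone H3 variant, held 54.1 to 72.6 CPM at 6 h (median 62.6) and 26.1 to 42.9 CPM at 24 h (median 31.7) (log2 -0.96 ± 0.072, adjusted p = 1.48e-10). TTK, a kinase of the spindle checkpoint, changed by -0.92 ± 0.071 and CENPE, a kinetochore motor, by -0.88 ± 0.055. CCNB1, the B-type cyclin of entry into mitosis, fell from 336 to 208 CPM in median, CENPF from 443 to 236 CPM, BUB1 from 190.2 to 103 CPM and ECT2, which sets the plane of division, from 120.4 to 58.9 CPM. MKI67, the gene of the Ki-67 antigen, held 484 to 698 CPM at 6 h (median 566) and 357 to 425 CPM at 24 h (median 372) (log2 -0.57 ± 0.049). CDK1 changed by -0.48 ± 0.077 with overlap, and FOXM1, a transcription factor of this group, by -0.40 ± 0.05. PLK1 changed by -0.42 ± 0.063. Not called were SPC25 (-0.16 ± 0.079, adjusted p = 0.0984) and ESPL1, the separase gene (0.024 ± 0.082).

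DNA replication and G1/S genes moved the other way, 31 called higher and 4 lower of 52, with a median of 0.22. The GC offset gave 23 and 6, with a median of 0.105. UHRF1, which maintains DNA methylation at replication, read 49.1 to 83.5 CPM at 6 h (median 66.3) and 123 to 155 CPM at 24 h (median 139.9) (log2 1.10 ± 0.069), E2F1 rose by 1.03 ± 0.059 and CCNE1, the E-type cyclin, by 0.98 ± 0.07, each without overlap. E2F8 (0.82 ± 0.087), E2F2 (0.68 ± 0.081), RRM2, the ribonucleotide reductase subunit (0.62 ± 0.044), and MCM5 of the replicative helicase (0.37 ± 0.048) rose as well, and CCNE2 rose at a low level (0.52 ± 0.15), a call lost without replicate 1 (adjusted p = 0.0602). PCNA, the sliding clamp, fell by 0.24 on the log2 scale, and its call was lost without replicate 2 (-0.12, adjusted p = 0.0796). CDKN1A, the p53-inducible inhibitor of cyclin dependent kinases, rose from 97.4 to 126 CPM in median (log2 0.34 ± 0.052).

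The G1/S rise was unequal between replicates. Its median difference was 0.48, 0.45 and 0.46 in replicate 1 of Control, PRO and PCA, and lay between 0.014 and 0.12 in the 6 pairs of replicates 2 and 3. Relative to each gene's mean over the 18 libraries, the median level of the list was -0.41, -0.37 and -0.36 in the 6 h libraries of replicate 1, between -0.022 and 0.038 in the other 6 h libraries, and between 0.045 and 0.19 at 24 h. CDC6, which loads the helicase, stood at 71.7, 101 and 106 CPM in Control at 6 h in replicates 1, 2 and 3 and at 124, 122 and 125 CPM at 24 h. Without replicate 1, 19 members of the list were called higher and 7 lower, with a median of 0.12. Mitosis genes fell less in replicate 1, with median differences of -0.37, -0.091 and -0.45 in Control, PRO and PCA, against -0.71 to -0.49 in the other 6 pairs. Without replicate 1 all 50 mitosis genes were called lower (median -0.62).

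A test of this difference was added after these values were seen, setting the time difference of one replicate number against the mean of the other numbers over the 3 treatments. It called 506 genes (4.25%) for replicate 1, 282 higher (2.37%) and 224 lower (1.88%), 51 genes (0.428%) for replicate 2 and 2 genes (0.0168%) for replicate 3. With the GC offset it called 1177, 232 and 13 genes for replicates 1, 2 and 3. The 3 treatments of a number may come from 1 culture, so these p-values describe 1 number against the others and not a replicated condition. Of the 52 G1/S genes 20 were called higher in replicate 1 and 0 lower, and of the 50 mitosis genes 20 and 0. These counts restate the differences for which the test was added and give no further support. Of the 23 serine, glycine and aminoacyl-tRNA genes 9 were called higher and 0 lower, and of the 25 NRF2 genes 1 and 9. Of the 78 cytosolic ribosomal protein genes 0 were called higher and 10 lower (0 and 29 with the GC offset). Named after their values were seen, NCAPH, a condensin subunit, differed by 0.77 ± 0.097 (adjusted p = 0.000353), GINS1 by 0.72 ± 0.12, CDC45 by 0.77 ± 0.15, both of the helicase, ASNS, the asparagine synthetase, by 1.05 ± 0.2 and SLC7A11, the cystine transporter, by 1.02 ± 0.19 on the log2 scale.

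**Figure D4:**
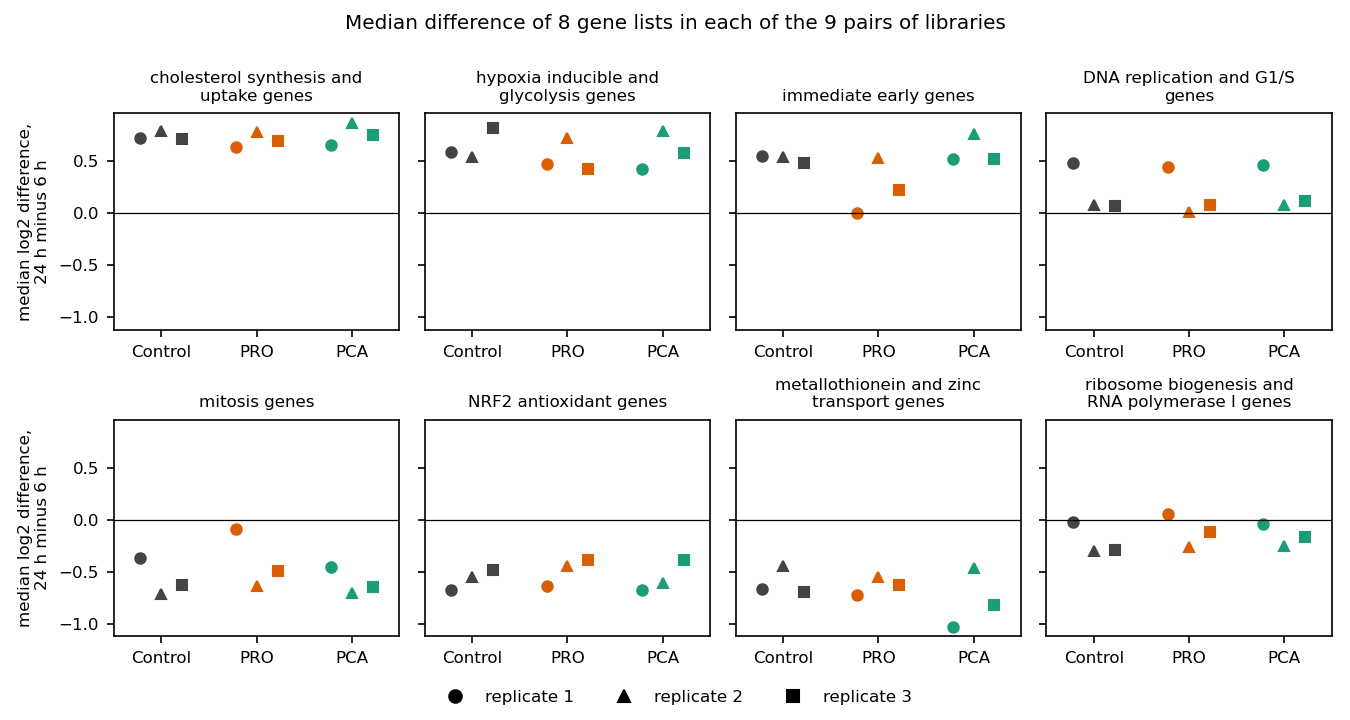
Median log2 difference, 24 h minus 6 h, of the tested members of 8 gene lists in each of the 9 pairs of libraries with the same treatment and replicate number; columns and colours give the treatment, and shapes the replicate number. Cholesterol genes lie between 0.64 and 0.87 in all 9 pairs, while G1/S genes lie at 0.45 to 0.48 in replicate 1 and at or under 0.12 in the others.

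NRF2 target genes of the antioxidant response fell in 19 of 25 tested members and rose in 3 (20 and 2 with the GC offset), with a median of -0.59. The aldo-keto reductases led. AKR1C2 read 755 to 898 CPM at 6 h (median 864) and 122 to 251 CPM at 24 h (median 168), AKR1C1 read 915 to 1169.7 CPM at 6 h (median 1033) and 199 to 368 CPM at 24 h (median 249) and AKR1C3 changed by -1.29 ± 0.065, with the caution on shared reads given above. AKR1B10, a reductase of retinal and aldehydes, changed by -1.30 ± 0.072. Enzymes outside that family fell too: GCLM and GCLC, both subunits of the ligase for glutathione synthesis, went from 34.2 to 16.5 CPM and from 151 to 81.1 CPM in median, without overlap. TXNRD1, the thioredoxin reductase, held 305 to 344 CPM at 6 h (median 323) and 142 to 188 CPM at 24 h (median 164) (log2 -0.99 ± 0.042, adjusted p = 6.8e-15), SRXN1 changed by -0.72 ± 0.053 and NQO1, the quinone reductase, by -0.60 ± 0.054. HMOX1, the haem oxygenase that other signals also induce, went against the list and rose from 36.7 to 70.4 CPM in median (log2 0.89 ± 0.071), and PGD, of the pentose phosphate pathway, rose by 0.21 ± 0.041. NFE2L2, the gene of NRF2, was not called (-0.028 ± 0.047).

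Metallothioneins are small cysteine-rich proteins that bind zinc and copper. Of 12 tested members of the list of metallothioneins and zinc transporters 7 were called lower and 3 higher, also with the GC offset, with a median of -0.65. Of all genes 28.5% were called lower and 27.1% higher (35.4% and 23% with the GC offset), so the 3 rises lay near the share of all genes. MT1E read 40 to 85.7 CPM at 6 h (median 69.8) and 11 to 21 CPM at 24 h (median 16.5) (log2 -2.08 ± 0.086), MT1G changed by -2.05 ± 0.14, MT1X by -1.97 ± 0.14, MT1F by -1.40 ± 0.13 and MT2A by -1.23 ± 0.099. MT2A overlapped between times, and MT1A was not called (0.46 ± 0.24). SLC30A1, which exports zinc from the cell and is an MTF1 target, held 41.7 to 62.7 CPM at 6 h (median 51.2) and 18.3 to 27.6 CPM at 24 h (median 24.1) (log2 -1.06 ± 0.075, adjusted p = 5.21e-11). In the opposite direction, SLC39A4, an importer of zinc, held 81.2 to 149 CPM at 6 h (median 117) and 161 to 316 CPM at 24 h (median 279.8) (log2 1.24 ± 0.098), and SLC39A10, another importer, rose by 0.82 ± 0.063, while SLC39A14 was not called (-0.07 ± 0.07). The remaining called rise was SLC30A10 (0.48), of the same SLC30 family as SLC30A1, and the remaining called fall was MTF1 itself (-0.23). All 9 within-treatment pairs gave MT1E, MT1G, MT1X, MT1F, MT2A and SLC30A1 as lower and SLC39A4 and SLC39A10 as higher. Over the list 6 members were lower and 3 higher in all 9 pairs, and of all genes tested 12.5% were lower and 13.2% higher in all 9. MT1E, MT1G, MT1X and MT1F are among the largest falls, for which this agreement was required, so it adds nothing for them.

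Plasma proteins, the main secreted products of hepatocytes, were called higher in 26 of 37 tested genes and lower in 6 (22 and 8 with the GC offset), with a median of 0.30. TTR, the carrier of thyroxine and retinol binding protein, read 67.5 to 108 CPM at 6 h (median 82) and 211 to 296 CPM at 24 h (median 269), a 3.12-fold rise (log2 1.64 ± 0.071, adjusted p = 9.56e-15). F12, the coagulation factor XII, rose by 1.36 ± 0.13 and APOC3, an inhibitor of lipoprotein lipase, by 1.27 ± 0.075. AFP, the fetal counterpart of albumin, rose from 7109 to 9743 CPM in median without overlap, while albumin itself (ALB) was not called (-0.0084 ± 0.042, adjusted p = 0.878). APOA1 was called higher (0.23 ± 0.079), but with the GC offset it was -0.083 and not called, and its call was also lost without replicate 3 (adjusted p = 0.322) and without Control 6 h replicate 3 (adjusted p = 0.0571). The falls were HPX, the haem carrier (-1.16 ± 0.11), KNG1, the kininogen (-1.06 ± 0.23), FGB, the fibrinogen beta chain (-0.75 ± 0.043), RBP4, APOC1 and APOH.

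Acute-phase, complement and inflammatory genes were mixed. Of 22 tested, 10 were called lower and 7 higher, against 28.5% and 27.1% of all genes, with a median of -0.17. SERPINA3 is given above. HP, haptoglobin, held 122 to 142 CPM at 6 h (median 137) and 55.1 to 66.9 CPM at 24 h (median 63.2) (log2 -1.11 ± 0.051), ORM1 and ORM2, the orosomucoids, which are near-identical neighbours, changed by -1.03 ± 0.043 and -0.97 ± 0.047, SAA4 by -1.15 ± 0.11, and C5 of complement by -0.94 ± 0.055. IL6R, a chain of the interleukin 6 receptor, went from 36.5 to 18.3 CPM in median (log2 -1.08 ± 0.073). CCL20, a chemokine, read 23.3 to 37 CPM at 6 h (median 29.6) and 94.9 to 221 CPM at 24 h (median 124) (log2 2.16 ± 0.1, adjusted p = 4.23e-14) and TNFAIP3, the inhibitor A20 of NF-kappaB, rose from 48.8 to 109 CPM. CXCL8, LCN2 and ITIH4 were called higher at levels of at most 3.30 CPM, and CXCL8 lost its call without replicate 2 or 3 (adjusted p = 0.109 and 0.0518). With the GC offset the counts were 12 lower and 6 higher.

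Genes of bile acid and drug metabolism were called higher in 8 of 23 and lower in 5 (8 and 8 with the GC offset). The shares of all genes were 27.1% and 28.5%. SLC51A, a basolateral exporter of bile acids, held 2.18 to 5.36 CPM at 6 h (median 3.62) and 12.7 to 17.8 CPM at 24 h (median 15.9) (log2 2.18 ± 0.13). CYP8B1, which sets the share of cholic acid, rose by 1.19 ± 0.12, CYP7A1, the rate-limiting enzyme of bile acid synthesis, by 1.17 ± 0.2 at 1.29 to 5.11 CPM, BAAT, which conjugates bile acids, by 1.22 ± 0.11 and ABCB4, the canalicular phospholipid exporter, by 0.87 ± 0.1. KLB, the co-receptor of FGF19 that represses CYP7A1, held 245 to 289 CPM at 6 h (median 259) and 139 to 159 CPM at 24 h (median 149) (log2 -0.83 ± 0.043). NR1H4, the bile acid receptor FXR, held 73.4 to 90.9 CPM at 6 h (median 84.3) and 29.9 to 40.4 CPM at 24 h (median 30.7) (log2 -1.35 ± 0.067, adjusted p = 1e-13), while its target NR0B2 rose by 0.95 ± 0.11 and NR1I2, the xenobiotic receptor PXR, by 0.86 ± 0.064. Hepatocyte transcription factors and nuclear receptors as a list were called higher in 10 and lower in 9 of 31, near the shares of all genes. The GC offset gave 6 and 15, beside 23% and 35.4% of all genes. HNF4A changed by -0.26 ± 0.045.

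Fatty acid oxidation and PPAR alpha target genes were called higher in 17 of 28 and lower in 3 (14 and 7 with the GC offset), with a median of 0.18. Of all genes 27.1% were called higher and 28.5% lower (23% and 35.4% with the GC offset). FABP1, the liver fatty acid binding protein, read 167 to 291 CPM at 6 h (median 233) and 782 to 1116 CPM at 24 h (median 921), a 4.03-fold rise (log2 2.01 ± 0.08). PLIN2, the coat protein of lipid droplets, rose from 157 to 298 CPM in median. CPT1A, which admits long-chain acyl groups to the mitochondrion, changed by -0.41 ± 0.11 with overlap and was not called without replicate 3 (-0.24, adjusted p = 0.165). Of 23 genes of gluconeogenesis or regulated by FOXO or insulin, 12 were called higher and 5 lower (10 and 5 with the GC offset). PCK1 rose by 0.78 ± 0.097 and IGFBP1 by 0.72 ± 0.12, both with overlap, and KLF15 fell from 16.4 to 8.74 CPM (log2 -0.88 ± 0.098).

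Groups of protein and energy supply had medians closer to 0. The shares of all genes were 28.5% lower and 27.1% higher (35.4% and 23% with the GC offset). Ribosome biogenesis genes were called lower in 30 of 50 and higher in 1 (35 and 3 with the GC offset, 19 and 1 over the sums of the 3 treatments), with a median of -0.17, which lay between -0.046 and 0.050 in replicate 1 and between -0.30 and -0.12 in the other 6 pairs. BOP1, of the processing of large-subunit RNA, changed by -0.61 ± 0.089, and NHP2 (-0.40 ± 0.073) and GAR1 (-0.47 ± 0.067), of the pseudouridylation complex, fell with overlap. The 78 cytosolic ribosomal protein genes had a median of 0.0087, 9 called higher and 10 lower. Without replicate 1 they were 24 higher and 5 lower, with the GC offset 11 and 22, and over the sums 4 and 4, so no direction was kept for them. RPL13A (0.29 ± 0.061) and RPS21 (-0.27 ± 0.051) were among the larger differences, and RPL13 (0.25 ± 0.075) was not called with the GC offset. Without replicate 3 neither RPL13 nor RPL13A was called (adjusted p = 0.0591 and 0.0528). These genes have many processed pseudogenes that could share reads. Nuclear genes of the respiratory chain were called lower in 27 of 52 and higher in 1 (30 and 3 with the GC offset, 16 and 1 over the sums), with a median of -0.12. CYC1, the cytochrome c1 gene, was the one that rose (0.79 ± 0.079), while SDHB (-0.47 ± 0.052) and NDUFA4 (-0.35 ± 0.048) fell.

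Cytosolic heat shock genes were called lower in 12 of 21 and higher in 1 (17 and 0 with the GC offset), with a median of -0.35. HSP90AA1, the inducible HSP90, held 1886 to 2604 CPM at 6 h (median 2041) and 1198 to 1539 CPM at 24 h (median 1411) (log2 -0.63 ± 0.044), and HSPH1 and CHORDC1 changed by -0.70 ± 0.053 and -0.85 ± 0.079. HSPB1, the small heat shock protein HSP27, was the one that rose (0.38 ± 0.14). Lysosome and autophagy genes were called lower in 20 of 33, LAMP2 (-0.50 ± 0.056) and GLA (-0.53 ± 0.069) among them, and higher in 3 (27 and 4 with the GC offset), of which WIPI1, of early autophagosomes, rose (0.95 ± 0.075). Targets of p53 were called lower in 11 of 26 and higher in 6 (15 and 4 with the GC offset). Of all genes 28.5% were called lower and 27.1% higher (35.4% and 23% with the GC offset). FAS (-0.65 ± 0.073), TRIAP1 (-0.64 ± 0.051) and MDM2 (-0.38 ± 0.047) fell, and GDF15 rose with overlap (0.81 ± 0.1). ER stress and ATF4 targets gave 11 higher and 9 lower of 31 (11 and 13 with the GC offset), with STC2 (0.72 ± 0.07) and TRIB3 (0.62 ± 0.054) higher and NUPR1 lower (-0.61 ± 0.098). The 11 and 9 lay near the shares of all genes. Serine, glycine and aminoacyl-tRNA genes gave 6 higher and 7 lower of 23 (4 and 10 with the GC offset, 4 and 12 without replicate 1, 3 and 3 over the sums), with ALDH1L2 (0.98 ± 0.11) and ALDH1L1 (0.49 ± 0.088) higher and VARS lower (-0.54 ± 0.071). The 6 and 7 also lay near the shares of all genes. Extracellular matrix and TGF-beta targets gave 12 higher and 5 lower of 23 (9 and 8 with the GC offset), SPARC (0.81 ± 0.13) and INHBE (0.77 ± 0.11) among the rises. Their median was 0.20, and 0.038 with the GC offset, where the 8 lower lay near the share of all genes.

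The Control samples alone gave 4147 called genes (34.8%), 2065 higher (17.3%) and 2082 lower (17.5%), PRO 2601 (21.8%), 1431 higher (12%) and 1170 lower (9.82%), and PCA 4359 (36.6%), 2160 higher (18.1%) and 2199 lower (18.5%). With the GC offset the splits were 1704 higher and 2680 lower in Control, 1475 and 2287 with PRO, and 1694 and 2584 with PCA. In each of the 3 treatments 990 genes were called higher (8.31%) and 693 lower (5.82%). The time differences of the 3 treatments rest on separate libraries, and across the 11910 genes their Pearson's r was 0.750 between Control and PRO, 0.852 between Control and PCA and 0.751 between PRO and PCA. Genes are not independent, and the treatments may share cultures, sequencing pools and the shift with GC content, so r is a description and not agreement of independent experiments. All 560 and 93 genes past 1.5-fold had the same sign in each treatment. The median over the 560 was 1.27 in Control, 1.04 with PRO and 1.24 with PCA, and over the 93 it was -1.04, -0.90 and -1.01. These genes were chosen on the mean of the same libraries, so the signs and medians are a description. In pair PRO replicate 1 the 560 had a median of 0.83, against 0.98 to 1.30 in the other 8 pairs.

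**Figure D5:**
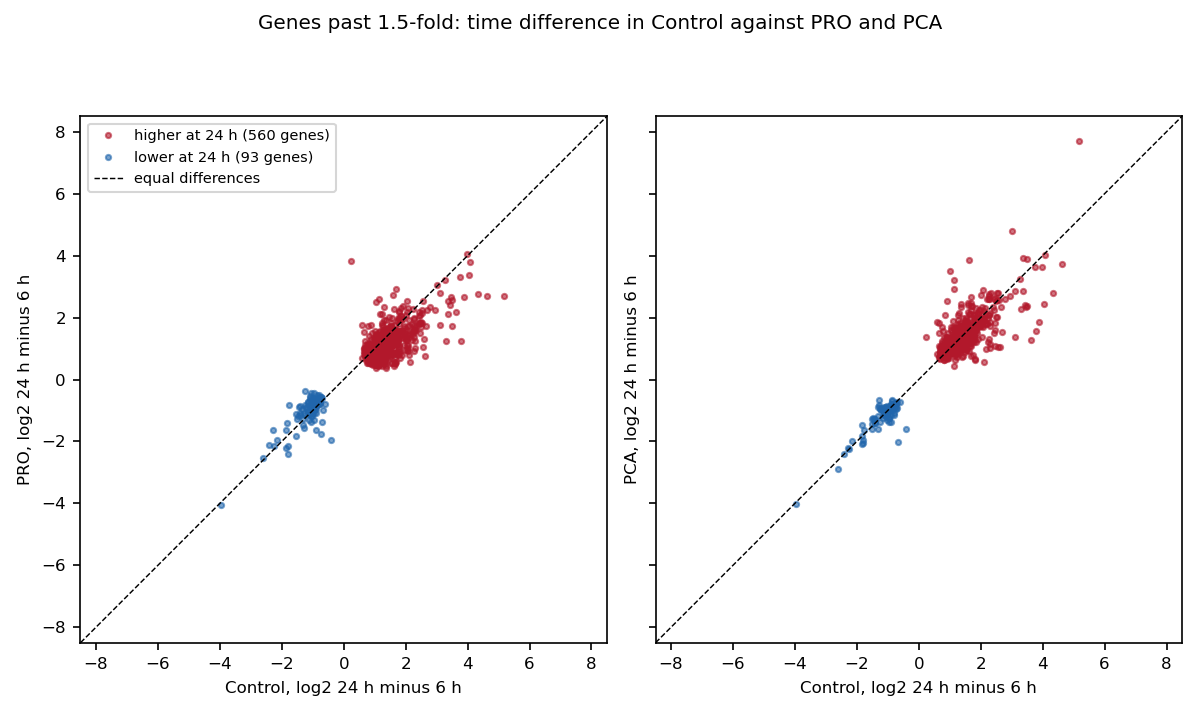
Log2 difference, 24 h minus 6 h, in Control (horizontal axis) against PRO (left) and PCA (right) for the 560 genes higher and the 93 genes lower past 1.5-fold in the mean of the 3 treatments. All points lie in the quadrants of equal sign; the median of the higher genes is 1.27 in Control, 1.04 with PRO and 1.24 with PCA.

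A test of the difference between time effects called 3 genes between PRO and Control (0.0252%) and 0 between PCA and Control, where 322 genes had an unadjusted p under 0.05 and the DESeq2 Wald test also called 0. The standard error of such a difference was 0.185 in the median over genes, so this does not show equal time effects. The 3 genes were FOXN2, a forkhead factor, RNF138, a ubiquitin ligase, and SPTSSA, a subunit of serine palmitoyltransferase, each with a time difference higher with PRO, and their values in every library are given among the results for a closer look.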

How the data were processed

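RNA of HepG2 cells was sequenced from TruSeq v2 libraries on a HiSeq1500. The authors aligned reads with STAR to hg19 and counted exon reads per RefSeq gene with the iRNA-seq pipeline, and the deposited values used here are raw counts per gene. The kit does not mark strand, so a gene and its antisense partner cannot be told apart.

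Of 18932 genes, 11910 passed filterByExpr over the 6 groups. The model in edgeR (4.0.16, R 4.3.3), the quasi-likelihood test with TMM scaling, had a term for each group and the replicate number as a factor (10 residual degrees of freedom), with Benjamini-Hochberg adjustment over all genes tested. glmTreat gave the test against 1.5-fold. Each treatment alone and the difference of the time effect between PRO or PCA and Control were contrasts of the same fit. The members and lists were chosen with earlier results of these data known. The text names the 12 largest rises and the 12 largest falls by log2 fold change (called, average log2 CPM above 2, same sign in all 9 pairs), the members of each list with the largest called changes, and members whose role is described; genes named otherwise are said to be, and some genes the rule names are not reported here.

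For the GC offset, a smoothing spline (5 degrees of freedom) on gene GC content was fitted in each library to log2 CPM relative to each gene's mean over the libraries. Of the 18932 genes 17756 (93.8%) had a GC value. Promoters were from RefSeq (GRCh38.p14), while gene positions are hg19, start to end. The model was tested on simulated counts of 11800 genes for the mean of the 3 treatments: 98% of 100 genes changed by 1 log2 unit and 85.9% of those changed by 0.5 were found. Of those changed by 1 log2 unit 77% passed the 1.5-fold test. The simulated libraries were independent, without differences between cultures or treatments or in GC slope, so these shares need not hold for the real counts. No pair of libraries agreed within sampling noise (lowest chi-square per degree of freedom 2.51 of 153 pairs). Alternatives were the model without or with other replicate terms, other scaling, filters, DESeq2 (1.42.0), the 3 treatments of a replicate number summed, thinning to equal depth, the GC offset and leaving out libraries. Samples that received DHA entered only the alternative with all 36 samples.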

Additional observations from a re-analysis of the deposited data

Results flagged for a closer look

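The time difference of 3 genes differed between PRO and Control in edgeR's quasi-likelihood test of that difference. In FOXN2 (hg19 chr2:48541795-48606434, plus strand) the Control libraries read 80.3, 64.1 and 59.9 CPM at 6 h and 54.5, 47.2 and 42.9 CPM at 24 h in replicates 1, 2 and 3, and the PRO libraries 52.1, 58.5 and 38.6 and 86.9, 65.3 and 59.2 CPM. All 3 Control pairs went down and all 3 PRO pairs up, a difference of 0.992 ± 0.16 (SE) on the log2 scale (adjusted p = 0.0137). RNF138 (hg19 chr18:29671818-29711524, plus strand) read 48.6, 40.4 and 35.7 CPM at 6 h and 18.6, 25.4 and 15.7 CPM at 24 h in Control, against 33.5, 36.1 and 18.3 and 49.9, 34.4 and 28.5 CPM with PRO. Its difference was 1.43 ± 0.23 (adjusted p = 0.0137), and PRO replicate 2 did not go up. SPTSSA (hg19 chr14:34902144-34931468, minus strand) read 313, 276 and 232 and 109.6, 115 and 96.1 CPM in Control and 198, 297 and 128 and 301, 188 and 182 CPM with PRO, a difference of 1.5 ± 0.26 (adjusted p = 0.0235), with PRO replicate 2 going down. These genes are low in GC content (34.4%, 36.8% and 36.7%). With the GC offset the differences were 0.70, 1.19 and 1.25 (adjusted p = 0.0137, 0.003 and 0.003). Without PRO 24 h replicate 1 they were 0.90, 1.23 and 1.27 (adjusted p = 0.0532, 0.0532 and 0.0589), so no call was left.

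PRO 24 h replicate 1 lay apart from the other 8 libraries of 24 h in its slope on GC content of log2 CPM relative to the gene mean. The slope was -0.181 per 10 points of GC, where the next lowest was Control replicate 1 at 0.016. Of 16 highest and lowest values of libraries looked at in this way it was the one past the limit, and chance flags about 1 in 20 groups. Without this library 6797 genes were called for the mean of the 3 treatments.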

How the results depend on the processing

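The replicate numbers were not shown to pair the libraries: correlations of same-numbered deviations ran from -0.222 to 0.239, 6 of 9 over 0.1, although 7 of 9 libraries matched their own number best. Without the replicate block 5825 genes were called for the mean of the 3 treatments, 596 past 1.5-fold, 3154 in Control, 1638 with PRO and 3368 with PCA. The mean stayed between 4812 and 6797 called genes with a replicate or library left out, and the test against 1.5-fold between 449 and 721. Against 2-fold it kept 171. With replicate 3 alone, which is 1 replicate number under 3 treatments and was added after seeing the data, the counts were 2699 and 322. Control gave 1778 to 4469, PRO 888 to 2690 and PCA 2312 to 4727, each lowest without replicate 3 (without replicate 1 or 2 Control gave 3418 and 3523). Under the replicate block the difference PRO minus Control (3 genes) was the least stable. It called 0 genes without the block or with all 36 samples, 5 with the block within each time, 39 with DESeq2, 278 with no filter and 0 to 1101 with libraries left out. It reached 1101 without replicate 2, 609 without PRO 24 h replicate 2, 62 without PRO 6 h replicate 2 and 6 without either Control or PCA 6 h replicate 2. It was 0 without Control 6 h replicate 1 or 3, PRO 6 h replicate 1 or 3, Control 24 h replicate 1, PRO 24 h replicate 1 or 3, replicate 1, or replicate 3. PCA minus Control was 0 in each of these. The cause was not tested.

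Upper quartile scaling gave 3617 higher and 2880 lower. Over 183 genes and 32 alternatives, 5740 of 5848 values kept direction and side of the threshold. A call was lost in 72 values of 28 genes, 19 with replicate 3 alone, 36 with a library or replicate left out and 17 otherwise. With replicate 3 alone the lost calls were ACSL1, CCNE2, CD14, CDKN1A, ELOVL2, GAR1, GDF15, GINS1, IER3, KNG1, MDM2, NDUFA4, NHP2, NUPR1, PCNA, RNF138, RPL13, RPS21 and SPTSSA (adjusted p 0.0516 in GAR1 to 0.532 in RNF138). Over the sums of the 3 treatments they were APOA1, FOS, GAPDH, GINS1 and LCN2. Values that turned sign were ALB (0.030 with upper quartile scaling, 0.076 with the GC offset, 0.089 in replicate 3 alone, -0.044 to 0.041 with a library or replicate left out), APOA1 (-0.083, GC offset), NFE2L2 (0.011, upper quartile; 0.064, GC offset), FOXN2 (0.048, GC offset; 0.022, replicate 3 alone), ASNS (-0.16, replicate 3 alone; -0.069 to 0.46 with one left out), CDC45 (-0.034 to 0.35) and GINS1 (-0.0073 to 0.41), the last 3 lowest without replicate 1.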
